A study of Homo sapiens with 6 samples.

Results

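The islands of chromosomes 16 and 20 are described here in a chromatin immunoprecipitation (ChIP-seq) study of METTL14 in HepG2 cells. An island is a run of neighbouring windows rich in IP reads, as called by the program SICER. The members are all candidate islands of both chromosomes in the deposited tables of both conditions, except those overlapping positions 47850000 to 47912000 of chromosome 20 on the human genome build hg19. That gave 12601 of 106498 candidate islands. The DRB table held 8038 of its 67802 islands on these chromosomes, with 3266 on chromosome 16 and 4772 on chromosome 20. The untreated table held 4563 of its 38696, with 1834 on chromosome 16 and 2729 on chromosome 20. The interval left out held 10 DRB and 3 untreated islands.

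The study compared cells given 100 µM DRB for 3 h, with 1 IP and 1 input library, with untreated cells, with 2 IP and 2 input libraries. All cells were HepG2, a human hepatocellular carcinoma line, and all carried the same lentiviral METTL14 with an HA tag at its start and EGFP at its end, so that tagged METTL14 was present in the untreated cells too. The cells had been selected with puromycin and sorted for high GFP, which makes them overexpressing cells and not cells with their own level of METTL14. The IP used an antibody to HA, and the input is the background used here; no IP from cells without the tag was analysed. Whether the untreated replicates came from separate cultures is not stated, and the deposited tables give their reads as 1 sum. The values therefore carry counting error only and no spread between replicates.

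METTL14 binds RNA and pairs with METTL3, the enzyme that methylates adenosine in nascent RNA to N6-methyladenosine. DRB inhibits CDK9, the kinase that releases paused RNA polymerase II into elongation. HepG2 is known to carry extra copies of several whole chromosomes, 16 and 20 among them. Chromosome 16 has a large block of heterochromatin at the start of its long arm and many duplicated segments in its short arm, and repeats of this kind gather reads from many copies. Loci are given by their hg19 position, and no gene is named because no annotation of that build was used here.

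Reads per island set what can be seen. The islands of chromosomes 16 and 20 held 264538 IP and 189899 input reads in the DRB table, with medians of 24 IP and 15 input reads per island. In the untreated table they held 1960181 IP and 2044605 input reads, with medians of 268 and 279. Every DRB member had at least 11 IP reads and at least 1 input read, and every untreated member at least 67 IP reads and 39 input reads. The fold divides an island's IP reads by its input reads and multiplies the quotient by the authors' constant, 0.861 for DRB and 1.07 for untreated cells. Intervals are exact Clopper-Pearson intervals at 95% and cover counting error only, since reads are not independent molecules.

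Islands were dense on both chromosomes. Chromosome 20, here with the interval otherwise left out, ranked highest of 24 chromosomes in islands per Mb in both tables, with 76.0 in the DRB table and 43.4 in the untreated table. Chromosome 16 ranked 6 with 36.2 islands per Mb in the DRB table, and 5 with 20.3 in the untreated table. Chromosomes 2, 6, 14 and 17 were dense as well. Over the 17 chromosomes left without these, 16, 20 and Y, a set chosen after the values were seen, the median was 12.2 per Mb with DRB and 6.94 untreated, and no chromosome of these exceeded 17.4 and 9.17. Copy number itself was not measured here, and its part in these densities was not tested. Input reads per kb of island were only a little higher than elsewhere. The median was 7.50 with DRB and 56.4 untreated on chromosome 16, and 7.86 and 54.1 on chromosome 20, against 6.92 and 52.0 on the other nuclear chromosomes. An island has to reach a density of reads to be listed at all, which limits what the density inside islands can show.

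The arms were divided at the longest stretch without an island in either table. It ran from 35250600 to 46385601 on chromosome 16, 11.1 Mb, and from 26319600 to 29528801 on chromosome 20, 3.21 Mb. The short arm of chromosome 20 stood out by cover. DRB islands lay over 23.8% of its span and untreated islands over 48.3%, with 88.9 and 56.7 islands per Mb. The long arm of chromosome 20 had 19.8% under DRB islands and 28.5% under untreated islands. On chromosome 16 the arms were closer, with 10.7% and 14.99% of the short arm and 9.02% and 14.1% of the long arm under DRB and untreated islands.

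Cover varied widely from one 1 Mb bin to the next. The bin from 8 to 9 Mb of chromosome 20 had the most, with 508 kb under 159 DRB islands and 837.6 kb under 39 untreated islands. The bin from 13 to 14 Mb of chromosome 20 followed in the untreated table, with 471.2 kb under DRB islands and 806.6 kb under untreated ones. On chromosome 16 the bin from 14 to 15 Mb had the most, with 340.8 kb under 98 DRB islands and 520.4 kb under 49 untreated islands. Other bins were nearly empty. The bin from 6 to 7 Mb of chromosome 16 held 1 DRB island of 1.60 kb and no untreated island. The bin from 60 to 61 Mb of chromosome 16 held 11 DRB islands and 1 untreated island, and on chromosome 20 the bin from 59 to 60 Mb held 17 DRB islands and none untreated. The number of islands per bin ranked alike in both tables, with Spearman's rho of 0.95 over 78 bins of chromosome 16 and 0.72 over 60 bins of chromosome 20. This is a description over bins that share base composition and mappability, not over independent samples.

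**Figure D1:**
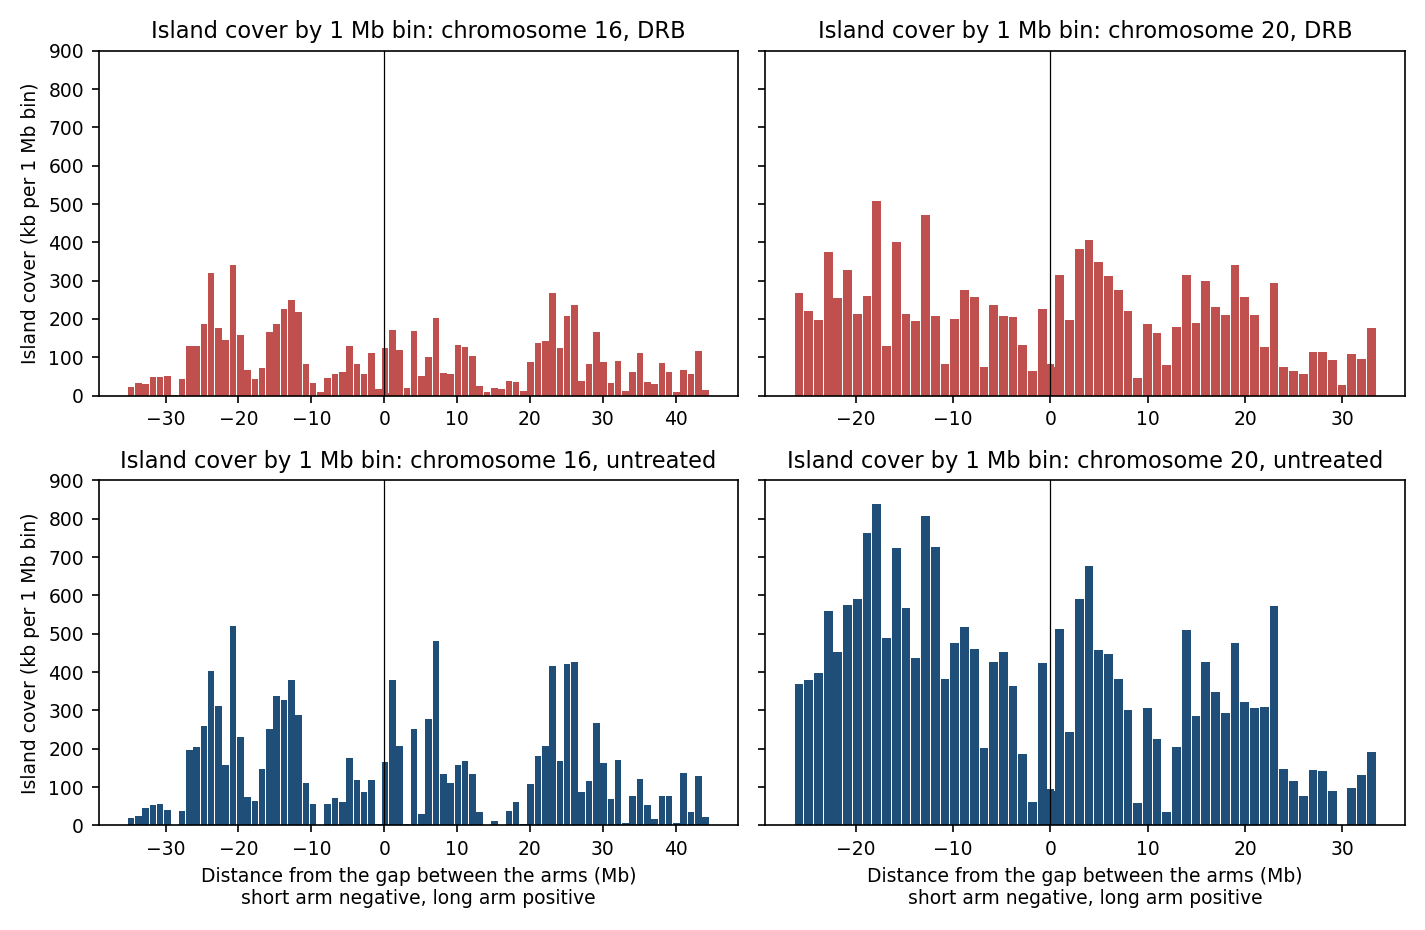
Kilobases covered by candidate islands in each 1 Mb bin (bars), against the distance of the bin from the gap between the arms in Mb, for chromosome 16 (left) and 20 (right), with DRB (top) and untreated (bottom). The short arm of chromosome 20 has the tallest bars, up to 508 kb for DRB and 837.6 kb for untreated islands, and chromosome 16 reaches 340.8 and 520.4 kb.

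METTL14 enrichment over these chromosomes was shallow. Summed over all their islands, the DRB fold was 1.20 on chromosome 16 (1.19 to 1.21) and 1.20 on chromosome 20 (1.19 to 1.21), against 1.29 (1.290 to 1.296) on the other nuclear chromosomes. The untreated fold was 1.04 (1.03 to 1.04) on chromosome 16 and 1.02 (1.02 to 1.03) on chromosome 20, against 1.07 (1.065 to 1.067) elsewhere. With the scaling centred on the median island of each table, all 4 summed folds fell below 1. That scaling divides the DRB folds by the median of all nuclear islands, 1.51, and the untreated ones by 1.08, so only values relative to these medians have a direction that does not depend on scaling. By the median over islands, DRB gave 1.40 on chromosome 16 and 1.34 on chromosome 20, against 1.53 elsewhere. Untreated islands had medians of 1.05 and 1.03, against 1.08 elsewhere. Chromosome 20 had the lowest untreated median of the 24 chromosomes and chromosome 16 the next lowest. In the DRB table they ranked 22 and 19. The dense chromosomes 2, 6, 14 and 17 were low as well, with untreated ranks of 19, 20, 22 and 21. Their DRB ranks were 18, 17, 23 and 20. At the authors' scaling a fold above 1 was found in 83.1% of the DRB members and 66.0% of the untreated members, against 89.2% and 77.8% of the islands on the other nuclear chromosomes.

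The short arm of chromosome 20 had the highest summed DRB fold among the arms, 1.24 (1.23 to 1.25), and its long arm the lowest, 1.16 (1.15 to 1.18). On chromosome 16 the DRB fold was 1.19 (1.18 to 1.21) on the short arm and 1.20 (1.19 to 1.22) on the long arm. The untreated folds were 1.03 (1.026 to 1.033) and 1.02 (1.01 to 1.02) on the short and long arms of chromosome 20. On chromosome 16 they were 1.03 (1.02 to 1.03) and 1.04 (1.040 to 1.049). The intervals of the chromosome 20 arms did not overlap in either condition, and those of the chromosome 16 arms overlapped in the DRB table only. The order of the arms depended on the measure. On the long arm of chromosome 16 the bin from 46 to 47 Mb held 11931 of the 41762 DRB input reads, at 0.948-fold (0.925 to 0.972). By the median over islands that arm had the highest DRB fold, 1.45. The short arm of chromosome 20 had 1.38, the short arm of chromosome 16 1.36 and the long arm of chromosome 20 1.31.

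Fewer islands were called significant here than elsewhere, relative to the candidates. The authors' list is the islands with a false discovery rate (FDR) under 1e-04. With DRB it held 227 members, 109 on chromosome 16 and 118 on chromosome 20, which are 3.34% and 2.47% of the candidates there, where 4.76% of all DRB candidates were called. In untreated cells it held 127, 64 on chromosome 16 and 63 on chromosome 20, which are 3.49% and 2.31%, where 5.10% of all untreated candidates were called. Chromosome 20 had the lowest called share of the 24 chromosomes in both tables. Low shares were not particular to chromosomes 16 and 20. On the dense chromosomes 2, 6, 14 and 17 the shares were 3.29%, 3.41%, 2.80% and 3.31% with DRB. Untreated they were 2.67%, 3.62%, 5.78% and 5.16%, so chromosomes 2 and 6 were low there but 14 and 17 were above the 5.10% of all untreated candidates. These shares were not tested against other chromosomes, because islands of 1 library are not replicates.

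The DRB calls rested on few reads. The significant DRB islands had median folds of 3.66 on both chromosomes, with medians of 20 IP against 5 input reads on chromosome 16 and 19 against 4 on chromosome 20. The input count was 10 or fewer in 89 of the 109 and 93 of the 118. Their median widths were 1.2 and 1.0 kb, and 12 and 17 of them were a single window of 200 bp. The untreated calls had medians of 264.5 IP and 204 input reads on chromosome 16 and 352 and 296 on chromosome 20. Their median folds were 1.43 and 1.35, with 1 island on each chromosome at a fold of 2 or more. Their median widths were 4.1 and 6.4 kb.

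The authors' p-value takes the scaled input as exact. An exact two-sided binomial test of IP against input reads, with Benjamini-Hochberg adjustment over every island of the table, includes the error of the input. At an adjusted p of 0.05 it called 1 DRB member above input, where 0.00885% of all DRB candidates were called, and 4 members below input, where 0.0826% were called. In untreated cells it called 135 members above input, 65 on chromosome 16 and 70 on chromosome 20, or 2.96% of the members, where 5.17% of all untreated candidates were called. It called 3 untreated members below input, all on chromosome 20, where 0.0853% were called. At an adjusted p of 0.0001 in the same test no DRB member was above input, where 0.00442% of all DRB candidates were, and 16 untreated members were, where 0.700% of all untreated candidates were.

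The median fold fell as input reads rose. The members of each table were ordered by input reads and divided into 5 groups of similar size. The DRB group with the lowest input, 1 to 9 reads, had a median fold of 2.15 and 178 of the 227 significant islands. The DRB group with 30 or more input reads had a median fold of 1.01 and 9 significant islands. Among untreated members the median fold was 1.14 in the lowest group, 39 to 179 input reads, and 1.01 in the highest, 541 reads or more. Those groups held 49 and 32 of the 127 significant islands. The input count is also the denominator of the fold, so these values are not independent of each other. Islands are moreover listed for being rich in IP reads, and every DRB member had at least 11. That selection by itself keeps folds high where input reads are few.

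**Figure D2:**
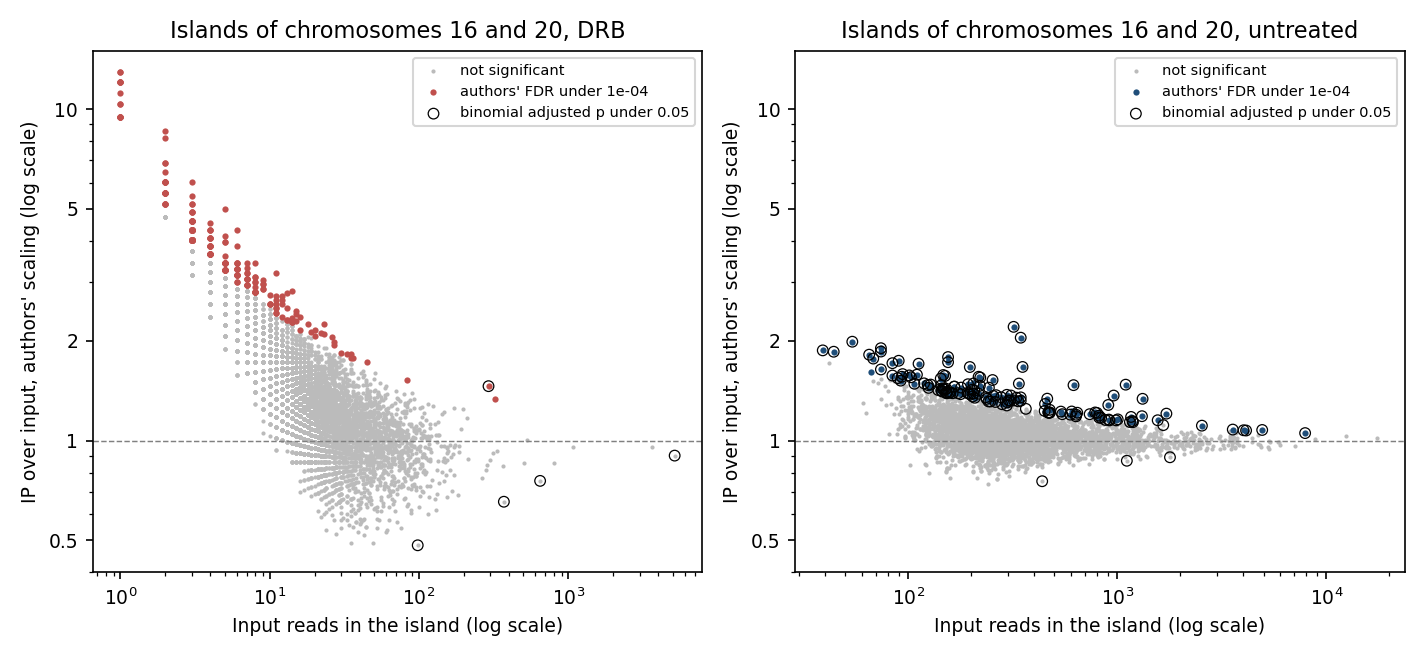
Fold (IP over input with the authors' scaling, log axis) of each member island against its input reads (log axis), with DRB (left) and untreated (right). Coloured points are the authors' significant islands and open circles mark islands with a binomial adjusted p under 0.05. The 227 significant DRB islands follow the upper edge at low input, where 178 have 1 to 9 input reads, and the 127 untreated ones spread over the whole range of input.

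The strongest untreated locus on chromosome 16 lay in the short arm, towards the gap, at 33963001 to 33965200. The DRB island over it, at 33962201 to 33965400, had 495 IP and 292 input reads, a fold of 1.46 (1.26 to 1.69). The untreated island had 655 IP and 319 input reads, a fold of 2.20 (1.92 to 2.53). It was significant in both lists and above input in the binomial test in both, with adjusted p = 0.000515 for DRB and 1.14e-29 untreated (exact binomial test), and it is the 1 DRB member that passed. With the centred scaling its DRB fold turned to 0.969, below input. Its input density was 13.0 times the DRB median and 2.77 times the untreated median over all nuclear islands. This island and the other islands of highest fold given next were picked for their untreated fold. That choice favours a higher untreated than DRB fold.

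The strongest on chromosome 20 also lay in the short arm next to the gap, at 26187201 to 26190800. With DRB the island at 26187001 to 26190800 had 498 IP and 322 input reads, 1.33-fold (1.15 to 1.54), which fell to 0.884 with the centred scaling. The untreated island had 657 IP and 345 input reads, 2.04-fold (1.79 to 2.33). The untreated excess passed the exact binomial test (adjusted p = 3.67e-25), and the DRB excess did not (adjusted p = 0.0666). The input density was 12.1 times the DRB median and 1.83 times the untreated median. Reads of repeated sequence and their part in the folds of these islands near the gaps were not tested.

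The other high untreated folds of chromosome 16 lay on the long arm. At 90234801 to 90236000, the last island of the chromosome, 100 IP reads stood against 54 input reads, 1.99-fold (1.41 to 2.82). The island at 55785801 to 55787600 had 131 and 74 reads, 1.90-fold (1.42 to 2.56), and that at 57624401 to 57626000 had 128 and 74, 1.86-fold (1.38 to 2.51). No DRB candidate island lay over any of these 3. The narrow islands at 88905401 to 88906000 and 53082001 to 53082800 had 1.87-fold (1.24 to 2.85) and 1.85-fold (1.26 to 2.75), again with no DRB island over them. With 39 and 44 input reads, they were the ones of these 8 with the least support, with adjusted p = 0.0428 and 0.0311 (exact binomial test). The lack of a DRB island is common. A DRB candidate lay over 38 of the 64 untreated significant islands of chromosome 16 (59.4%) and over 52.3% of those of the whole genome.

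At the remaining loci of high fold on chromosome 16 a DRB island was present. At 82115401 to 82117600, the DRB island had 22 IP and 17 input reads, 1.11-fold (0.565 to 2.23), and the untreated island 258 and 155, 1.79-fold (1.46 to 2.19). At 71371601 to 71373000, DRB gave 27 and 16 reads, 1.45-fold (0.755 to 2.89), and untreated cells 110 and 65, 1.82-fold (1.32 to 2.51). The ratio of DRB over untreated fold was 0.624 at the first and 0.800 at the second, with adjusted p = 1 and 0.967 (exact conditional test, the second over all overlapping islands), so a difference was not detectable at this depth.

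On chromosome 20 the next 7 untreated folds ran from 1.55 to 1.77. The island at 25203001 to 25204800 had 112 IP and 68 input reads, 1.77-fold (1.30 to 2.43), and no DRB island. The island at 20136601 to 20138400 had 26 IP and 13 input reads with DRB, 1.72-fold (0.853 to 3.65), and 134 and 84 in untreated cells, 1.71-fold (1.29 to 2.28). The long-arm island at 55360801 to 55364400 had 19 and 9 reads with DRB, 1.82-fold (0.783 to 4.56), over 1.2 kb of the 3.6 kb, and 306 and 197 reads untreated, 1.67-fold (1.39 to 2.00). At 1520401 to 1523600 and 5715401 to 5718800 the untreated folds were 1.57 (1.21 to 2.05) and 1.58 (1.27 to 1.96), with no DRB island at either. The islands at 11474801 to 11477200 and 53039601 to 53042000 had DRB folds of 1.29 (0.588 to 2.94) and 2.15 (0.789 to 6.77) and untreated folds of 1.59 (1.21 to 2.08) and 1.55 (1.20 to 2.02). Each DRB interval at these 4 loci with a DRB island contained the untreated fold. Of the 63 untreated significant islands of chromosome 20, 45 had a DRB candidate over them (71.4%), where the share over the whole genome was 52.3%.

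**Figure D3:**
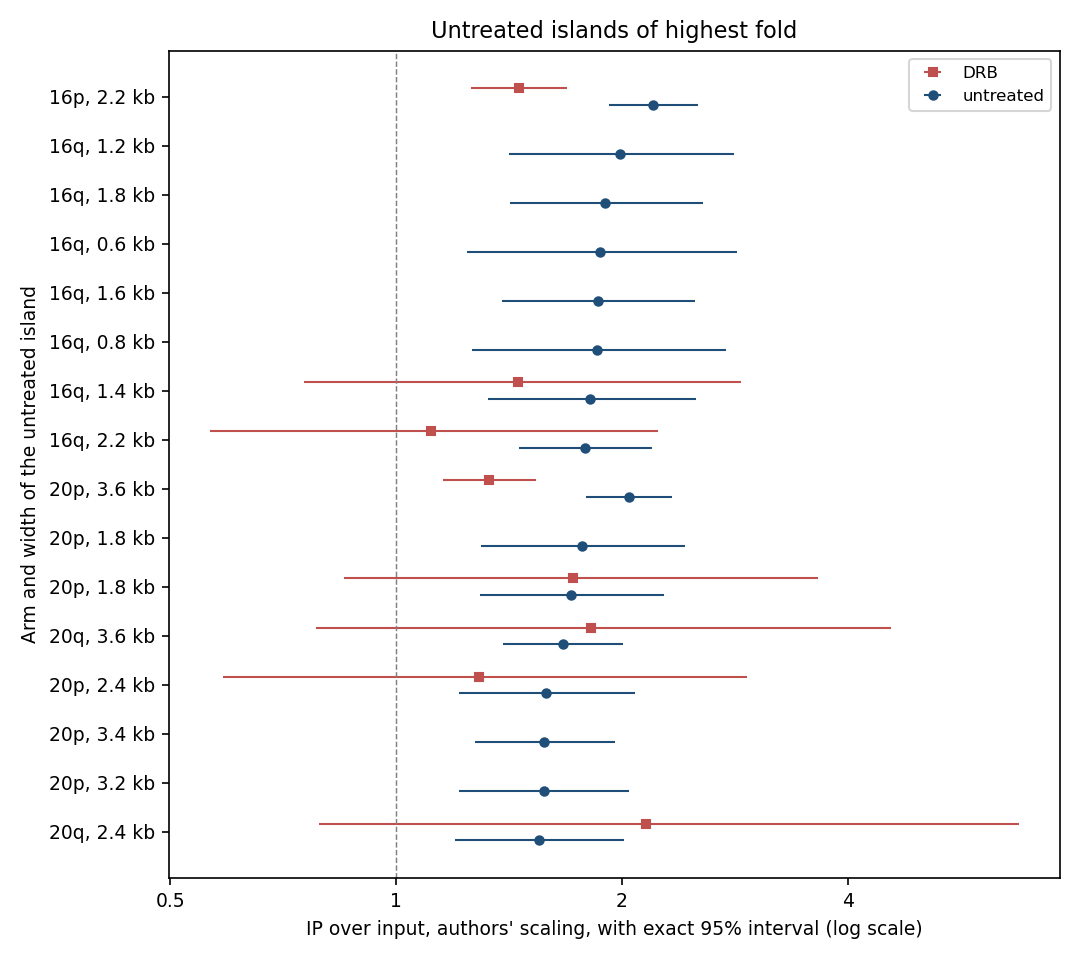
Fold (IP over input with the authors' scaling, log axis) with exact 95% intervals of the 8 untreated islands of highest fold on each chromosome, labelled by arm and width, with the DRB fold of the islands over them above it where there are any. The islands nearest the gaps, 16p of 2.2 kb and 20p of 3.6 kb, are the only ones above a fold of 2 in untreated cells. They are also the only ones whose DRB interval lies wholly below the untreated interval. Their DRB folds are below 1 under the centred scaling. All islands shown were picked for their untreated fold, which favours a higher untreated value.

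Some of the best supported untreated islands were wider and had lower folds. Of the 16 with an adjusted p under 0.0001 in the exact binomial test, which were singled out after their values were seen, 10 lay on chromosome 16. At 3069601 to 3075000, the DRB island had 19 IP and 17 input reads, 0.962-fold (0.473 to 1.97), and the untreated island 547 and 352, 1.67-fold (1.46 to 1.91). At 2200801 to 2206800, DRB had 31 and 28 reads, 0.953-fold (0.553 to 1.65), and untreated cells 468 and 338, 1.49-fold (1.29 to 1.71). Near the other end of chromosome 16, the island at 89625601 to 89634800 had 54 IP and 53 input reads with DRB, 0.877-fold (0.589 to 1.31), and 845 and 617 untreated, 1.47-fold (1.32 to 1.63). The 16.6 kb island at 87880601 to 87897200 had 100 and 82 reads with DRB, 1.05-fold (0.776 to 1.42), and 1223 and 960 untreated, 1.37-fold (1.26 to 1.49).

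On chromosome 20 the one with most reads was at 30190601 to 30203000, near the gap, with 198 IP and 230 input reads in 3 DRB islands, 0.741-fold (0.610 to 0.900), and 1644 and 1320 untreated, 1.34-fold (1.24 to 1.44). The 13.8 kb island at 48800201 to 48814000 had 181 and 161 reads with DRB, 0.968-fold (0.778 to 1.20), and 1506 and 1096 untreated, 1.47-fold (1.36 to 1.60). DRB islands lay over 14 of the 16. There the median fold was 0.965 with DRB and 1.504 untreated. DRB gave the lower value at 13 of these, and at 7 the DRB interval ended before the untreated one began. These islands were picked for their untreated values, which favours a higher untreated fold, and the DRB islands over them differ in extent.

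The widest significant islands were low in fold. On chromosome 20 they were 75 kb at 34276201 to 34351200, 54.8 kb at 52709401 to 52764200 and 47.6 kb at 350401 to 398000. Their DRB folds were 0.860 (0.787 to 0.939), 0.951 (0.844 to 1.07) and 1.01 (0.866 to 1.17), and their untreated folds 1.05 (1.02 to 1.09), 1.08 (1.03 to 1.12) and 1.07 (1.03 to 1.12). These 3 untreated folds fell just below 1 with the centred scaling. On chromosome 16 the widest were 20.8 kb at 21512601 to 21533400, 17 kb at 56964401 to 56981400 and 16.6 kb at 87880601, the last described above. The first had 204 IP and 240 input reads in 4 DRB islands, 0.732-fold (0.604 to 0.885), and 1928 and 1716 untreated, 1.21-fold (1.13 to 1.29). The second had 1.20-fold (0.870 to 1.66) with DRB and 1.14-fold (1.06 to 1.24) untreated.

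The islands with most reads showed IP and input about level. On chromosome 16, 2 of the 3 opened the long arm. The island at 46385601 to 46397000 had 5391 IP and 5152 input reads with DRB, 0.901-fold (0.867 to 0.936), and 16578 and 17454 untreated, 1.02-fold (0.998 to 1.04), which turned to 0.945 with the centred scaling. Input there was 64.6 times as dense as the DRB median and 29.3 times the untreated one. The next, at 46398401 to 46414400, had 0.956-fold (0.914 to 1.00) with DRB and 1.04-fold (1.01 to 1.06) untreated, 0.960 with the centred scaling. The third was the 81.4 kb island at 14175801 to 14257200, with 697 IP and 546 input reads in 13 DRB islands, 1.099-fold (0.981 to 1.23), and 5477 and 5942 untreated, 0.989-fold (0.953 to 1.03). On chromosome 20 the 130.0 kb island at 30903601 to 31033600 had 1177 IP and 996 input reads in 21 DRB islands, 1.02-fold (0.934 to 1.11), and 8355 and 8846 untreated, 1.01-fold (0.983 to 1.04), which was 0.940 with the centred scaling. The 89 kb island at 8261201 to 8350200 had 1.14-fold (1.02 to 1.27) in 13 DRB islands and 0.964-fold (0.931 to 0.997) untreated. The third there was the 75 kb island already given.

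Depletion against input passed the test in 4 DRB islands, and the untreated islands over them had folds between 0.859 and 1.05. Besides the start of the chromosome 16 long arm, with adjusted p = 0.000189 (exact binomial test), they lay on the long arm of chromosome 20. At 34321801 to 34334200, inside the 75 kb island, 281 IP reads stood against 370 input reads, 0.654-fold (0.558 to 0.765). At 29618201 to 29639000 they were 568 and 647, 0.756-fold (0.674 to 0.847), where the untreated island had 1.02-fold (0.974 to 1.07). At 47131601 to 47133200 they were 55 and 98, 0.483-fold (0.341 to 0.679), where the untreated island had 0.859-fold (0.736 to 1.00). Input at these 3 was 4.26, 4.44 and 8.75 times as dense as the DRB median. The untreated members below input were at 34127401 to 34131400 (0.754-fold, 0.649 to 0.874), 45305801 to 45320800 (0.869-fold, 0.795 to 0.950) and 46129401 to 46153200 (0.890-fold, 0.830 to 0.954). At these positions DRB gave 1.05-fold (0.753 to 1.46), 1.16-fold (0.926 to 1.47) and 1.14-fold (0.940 to 1.39).

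Summed over zones of chromosome 16, the untreated fold was higher at both ends than between them, although some single bins in between were as high. Over the first 5 Mb the summed fold was 1.27 (1.18 to 1.35) with DRB and 1.20 (1.17 to 1.23) untreated. Over the last 5 Mb it was 1.16 (1.104 to 1.22) with DRB and 1.13 (1.11 to 1.15) untreated. Between them it was 1.20 (1.19 to 1.21) with DRB and 1.03 (1.028 to 1.035) untreated. The untreated intervals of both ends lay above that of the middle, and the DRB intervals of both ends overlapped that of the middle. Significant islands were 7 of 98 candidates in the first 5 Mb with DRB and 6 of 67 untreated, 2 of 140 and 12 of 79 in the last 5 Mb, and 100 of 3028 and 46 of 1688 between. Chromosome 20 had no such rise in untreated cells, with 1.02 (1.01 to 1.02) over the first 5 Mb, 1.02 (1.01 to 1.04) over the last 5 Mb and 1.02 (1.022 to 1.027) between. The zones of 5 Mb were chosen after the values of the bins were seen.

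Among bins with at least 2000 untreated input reads, 62 on chromosome 16 and 59 on chromosome 20, the highest untreated fold of chromosome 16 was in the bin from 2 to 3 Mb. It had 1.26-fold (1.08 to 1.48) with DRB and 1.26-fold (1.19 to 1.33) untreated. The bin from 3 to 4 Mb followed with 1.40-fold (1.23 to 1.60) and 1.21-fold (1.15 to 1.27), and the bin from 88 to 89 Mb with 1.04-fold (0.923 to 1.16) and 1.17-fold (1.104 to 1.25). The lowest were the bins from 14 to 15 Mb, with 1.13-fold (1.08 to 1.19) with DRB and 0.986-fold (0.971 to 1.00) untreated, from 23 to 24 Mb, with 1.21-fold and 0.991-fold, and from 11 to 12 Mb, with 1.08-fold and 0.999-fold. On chromosome 20 the highest were the bins from 53 to 54 Mb, with 1.66-fold (1.48 to 1.87) with DRB and 1.14-fold (1.11 to 1.18) untreated, from 38 to 39 Mb, with 1.69-fold (1.45 to 1.97) and 1.11-fold (1.05 to 1.17), and from 58 to 59 Mb, with 1.43-fold (1.30 to 1.58) and 1.1-fold (1.05 to 1.15). The lowest were the bins from 3 to 4 Mb, with 1.09-fold (1.04 to 1.14) with DRB and 0.985-fold (0.970 to 0.999) untreated, from 46 to 47 Mb, with 1.12-fold and 0.986-fold, and from 40 to 41 Mb, with 1.26-fold and 0.986-fold.

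Bins of high fold tended to be bins of low input density. Over the bins with islands in both tables, Spearman's rho of fold with input reads per kb was -0.91 with DRB and -0.54 untreated on chromosome 16 (78 bins), and -0.92 and -0.66 on chromosome 20 (60 bins). The rho of the DRB fold with the untreated fold was 0.47 on chromosome 16 and 0.71 on chromosome 20. These are descriptions: bins share base composition, the input reads are part of the fold, and islands are listed for their IP reads.

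**Figure D4:**
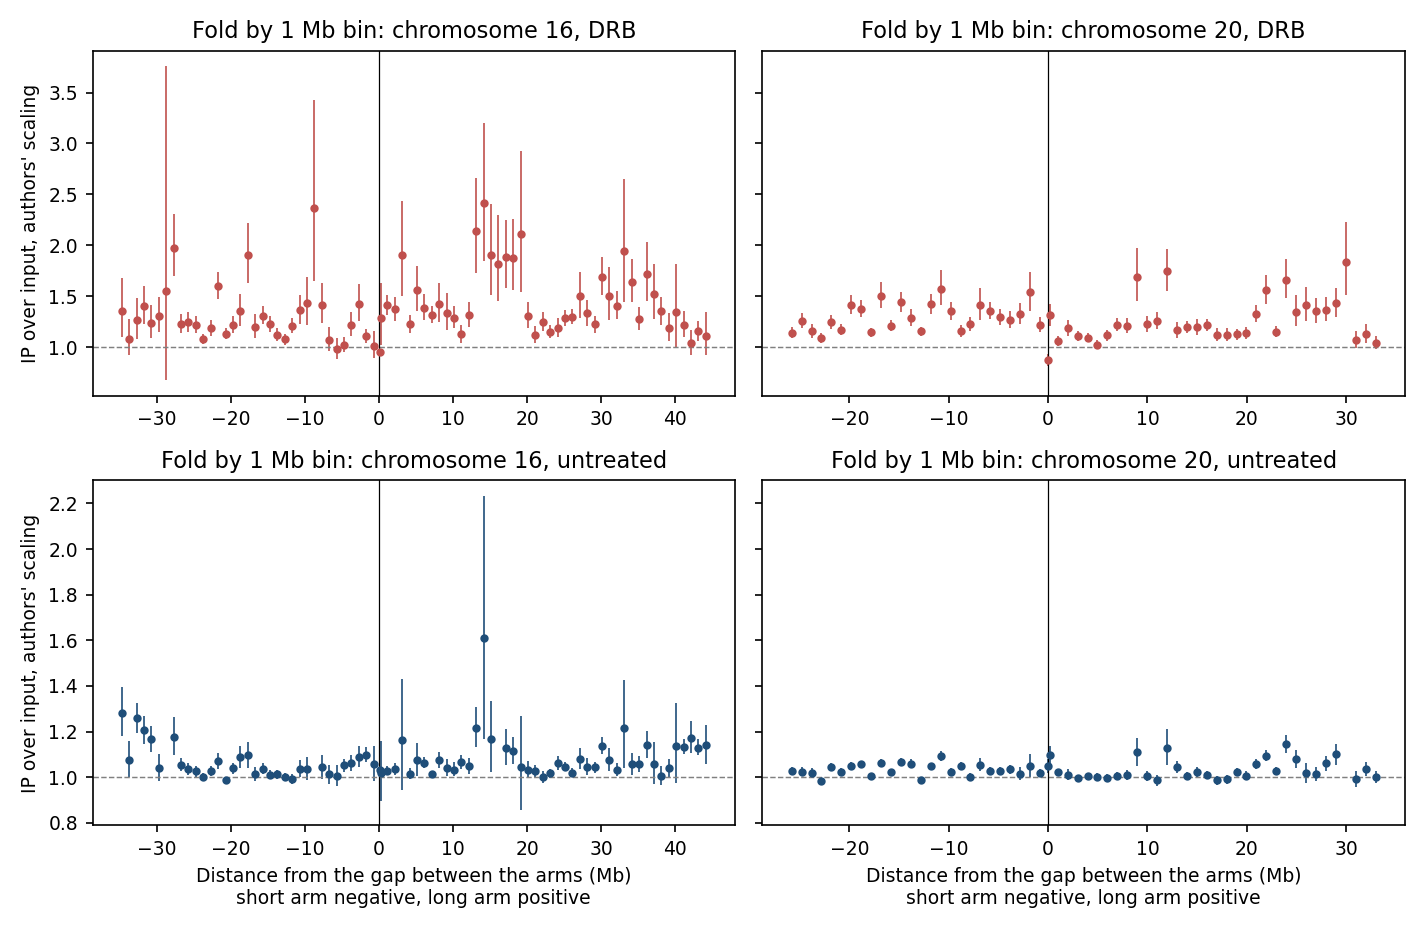
Fold summed over the islands of each 1 Mb bin (points) with exact 95% intervals (bars), against the distance of the bin from the gap between the arms in Mb, for chromosome 16 (left) and 20 (right), with DRB (top) and untreated (bottom); the fold axes of the rows differ. Untreated bins of chromosome 16 with at least 2000 input reads range from 0.986 to 1.26 with the 3 highest within 5 Mb of an end, and those of chromosome 20 range from 0.985 to 1.14.

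Some bins held several significant islands. With DRB, 12 bins had 4 or more, a limit set after the values were seen, 5 on chromosome 16 and 7 on chromosome 20. The islands in these bins had 1 to 83 input reads each. The fullest were the bins from 7 to 8, 13 to 14, 68 to 69 and 75 to 76 Mb of chromosome 16 and 9 to 10, 11 to 12, 45 to 46 and 47 to 48 Mb of chromosome 20, with 5 each. On chromosome 16 these bins held 27, 70, 65 and 73 DRB candidates, and on chromosome 20 65, 89, 108 and 80. Of all DRB candidates 4.76% were called. The bin from 7 to 8 Mb of chromosome 16 had its 5 calls among only 27 candidates. Whether any of these bins held more calls than that share gives was not tested. None of the significant DRB islands in the 12 bins passed the exact binomial test, with adjusted p = 0.353 for each. In untreated cells 3 bins had 4 or more, all on chromosome 16. They were 19 to 20 Mb with 5 islands (folds of 1.15 to 1.46), 71 to 72 Mb with 4 (1.35 to 1.82) and 87 to 88 Mb with 4 (1.17 to 1.56). These 3 bins held 44, 58 and 22 untreated candidates, where 5.10% of all untreated candidates were called. The same 3 bins held 2, 2 and 0 significant DRB islands among 75, 80 and 35 DRB candidates.

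The DRB significant islands with most IP reads lay over untreated islands with about equal IP and input. Apart from the islands near the gaps, they were at 10565601 to 10568800 and 11857801 to 11862400 on chromosome 16 and at 47686601 to 47698200 and 10494001 to 10501000 on chromosome 20. The first had 74 IP and 35 input reads with DRB, 1.82-fold (1.20 to 2.80), and 0.991-fold (0.924 to 1.06) in the untreated island over it. The second had 62 and 26, 2.05-fold (1.28 to 3.38), and 0.933-fold (0.859 to 1.01) untreated. The third had 147 and 83, 1.52-fold (1.16 to 2.02), and 1.00-fold (0.930 to 1.08) untreated. The last had 90 and 45, 1.72-fold (1.19 to 2.52), and 0.943-fold (0.860 to 1.03) untreated. The 4 DRB excesses had adjusted p = 0.353 each (exact binomial test). The DRB islands were 3.2, 4.6, 11.6 and 7 kb wide and the untreated ones over them 25.6, 20, 24 and 14.4 kb. These islands were picked for their DRB values, which favours a higher DRB fold.

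Few members were significant in both conditions. They were the strong islands near the gaps and the island at 50350801 to 50370800 of chromosome 20, where 1 DRB island of 1.2 kb at 50358601 had 17 IP and 4 input reads. The 4 DRB islands over this locus had together 1.27-fold (0.942 to 1.73), and the untreated island had 1.18-fold (1.09 to 1.28). The 3 shared islands were 1.32% of the DRB list of these chromosomes, where 1.08% of all DRB significant islands overlapped an untreated one. They were 2.36% of the untreated list, where 1.77% of all untreated significant islands overlapped a DRB one. An untreated candidate of any kind lay over 71 of the 227 DRB significant islands (31.3%) and over 66.7% of the DRB members that were not significant, where the shares over the whole genome were 19.9% and 53.7%. By chromosome it lay over 21 of the 109 DRB significant islands of chromosome 16 (19.3%) and 50 of the 118 of chromosome 20 (42.4%). A DRB candidate lay under 83 of the 127 untreated significant islands (65.4%) and under 72.9% of the untreated members that were not, where the shares over the whole genome were 52.3% and 61.6%.

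Where islands of both conditions covered each other by at least 50%, the folds were compared, although the islands of a pair can still differ in extent. There were 1091 such pairs, 494 on chromosome 16 and 597 on chromosome 20. Their median fold was 1.12 with DRB and 1.04 untreated on chromosome 16, and 1.15 and 1.02 on chromosome 20. The median ratio of DRB over untreated fold was 1.08 and 1.13, and 1.12 over all 7547 pairs of the genome. The 4 read counts of each pair were compared by an exact conditional test at the authors' scaling, with adjustment over the 7547 pairs. It called 8 pairs at an adjusted p of 0.05, all lower with DRB, or 3 on chromosome 16 and 5 on chromosome 20, where 0.888% of all pairs were called lower and 0.0398% higher. Input reads per kb in untreated islands were 7.23 times those in DRB islands by the median over these pairs, and the median of 28 DRB input reads limits what the test can call.

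The called pairs were of several kinds. Both strong islands near the gaps were among them, with a DRB over untreated fold of 0.662 (0.541 to 0.811) on chromosome 16 and 0.651 (0.536 to 0.793) on chromosome 20 (exact conditional test, adjusted p = 0.00730 and 0.00226). So were the start of the chromosome 16 long arm, with 0.884 (0.846 to 0.923), and the island at 29610601 to 29638800 of chromosome 20, with 0.740 (0.654 to 0.838), both with untreated folds of 1.02. Away from the gaps, the ratio was 0.540 (0.408 to 0.714) at 302601 to 312800 of chromosome 20, where a DRB island of 5.8 kb lay in an untreated one of 10.2 kb. There DRB had 106 IP and 132 input reads, 0.691-fold (0.530 to 0.899), and untreated cells 1080 and 905, 1.28-fold (1.17 to 1.40). It was 0.656 (0.520 to 0.829) at 48800201, described above. The other 2 were 0.615 (0.486 to 0.778) at 45976201 to 45991800 of chromosome 20 and 0.450 (0.286 to 0.703) at 29815601 to 29821600 of chromosome 16, which were not significant in either list. Their DRB islands were 10 and 3.4 kb wide and their untreated islands 15.6 and 6 kb. All 8 ratios stayed below 1 with the scaling centred on the reads of all pairs, and 7 of them were still called. With all overlapping islands in place of pairs, those at 29815601, 45976201 and 48800201 lost the call. Without islands of high input density, 5 of the 8 were left to test, and those at 29815601 and 48800201 lost it. The pair at 48800201 was thus called in none of these 3 alternatives.

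**Figure D5:**
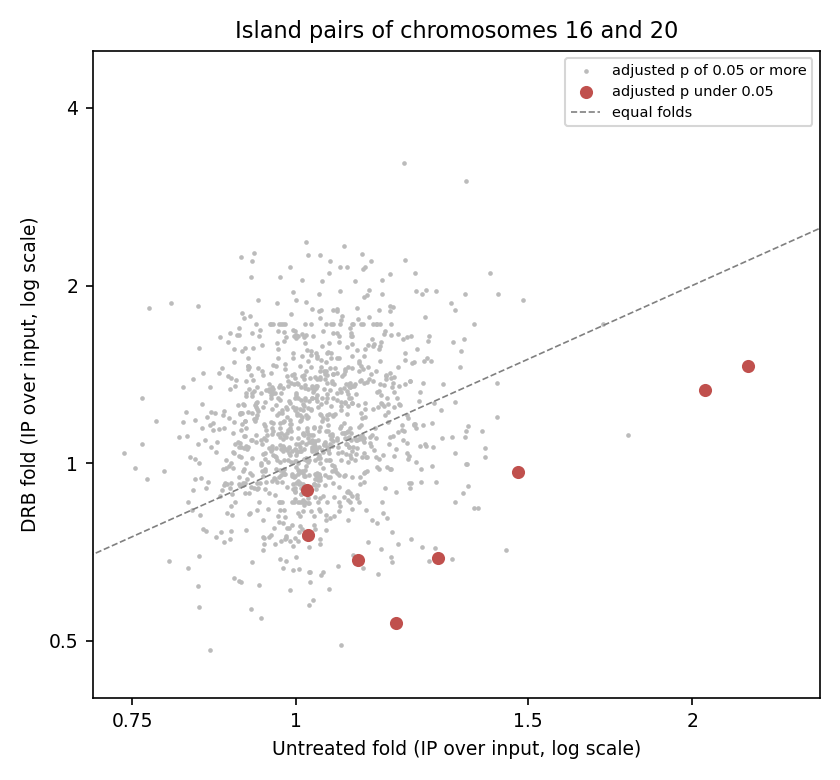
DRB fold against untreated fold (IP over input, log axes) of the 1091 island pairs of chromosomes 16 and 20 that cover each other by at least 50%, with the line of equal folds dashed. The 8 large points are the pairs called by the exact conditional test, all below the line, while 713 of the 1091 pairs lie above it, as do 4941 of the 7547 pairs of the whole genome.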

How the data were processed

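Per the submitters' processing notes, reads were checked with FastQC 0.11.5, the aligner named is Bowtie 1.1.2, islands come from SICER (no version named), and the build is hg19. No source used here gives SICER's settings or says how replicates were combined. The deposited counts are whole numbers of IP and of input reads per island, not normalized. The deposited ratio is the authors' fold, IP over input times a constant. The deposited p-values are the authors' Poisson tail with scaled input as mean, and an FDR made from it. The tables have no headers, so these meanings were checked on the values. Positions are 1-based.

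Tests were an exact two-sided binomial test per island and an exact conditional test of 4 counts per pair (Fisher's noncentral hypergeometric distribution), each adjusted over the whole table by the Benjamini-Hochberg method, and checked on simulated data. Of 100 islands simulated at each fold among 67795 of the DRB table, 9 at 2-fold and 75 at 4-fold were called by the binomial test. Among 38695 of the untreated table, all 100 at each fold were called. Lower folds, such as the medians of 1.43 and 1.35 of the untreated significant islands, were not simulated, so recovery at those folds is not known. With 100 simulated pairs at a ratio of 0.5 and 100 at 0.25, the conditional test recovered 8 and 42 among 7547. At a true ratio of 1, calls were made for 1 of 67595 DRB islands, 12 of 38495 untreated islands and 2 of 7347 pairs. The simulated reads were drawn without the selection that lists real islands for their IP reads. These rates of false calls therefore do not carry over to the real islands. The rule named, per chromosome, the 8 untreated islands of highest fold past the binomial test, the 3 widest significant ones, the 3 with most reads, DRB islands past the test, the 3 significant DRB islands with most reads, shared islands, and the 3 highest and lowest bins. The planned gene lists (m6A, liver, RNA processing, chromatin, long genes) were not read, because no annotation of this build was used. Members and rules were chosen with earlier results of these data known. Alternatives are given at the end. The work used SciPy 1.17.1, pandas 2.3.3, numpy 2.4.6 and matplotlib 3.10.9 in Python 3.11.15.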

Additional observations from a re-analysis of the deposited data

Results flagged for a closer look

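By the exact conditional test of reads, the fold differed between the DRB and untreated libraries at 8 of 1091 island pairs of chromosomes 16 and 20. Each is listed for that reason. Of all 7547 pairs, 0.888% were called lower with DRB and 0.0398% higher. With 1 DRB IP and 1 DRB input library, the test covers counting error only. The DRB over untreated fold was 0.884 on chromosome 16 at 46385601, 0.662 at 33963001 and 0.450 at 29815601. On chromosome 20 it was 0.740 at 29610601, 0.540 at 302601, 0.651 at 26187201, 0.615 at 45976201 and 0.656 at 48800201. The pair at 48800201 lost the call in each alternative given above. The input density in the untreated islands at 46385601 and 29610601 was 1531 and 128 reads per kb, against a median of 52.3 over all nuclear islands. The part of repeated sequence in these values was not tested.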

How the results depend on the processing

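No paired analysis was possible because the tables sum the untreated replicates, and for the same reason no replicate could be left out. At an FDR 10 times lower, 71 DRB and 69 untreated members were significant. At an adjusted p of 0.0001, the binomial test called 0 DRB and 16 untreated members above input, where 0.00442% and 0.700% of all candidates were called. With the scaling centred on the median island it called 0 and 32, and the summed folds were 0.796 with DRB and 0.962 untreated on chromosome 16 and 0.796 and 0.950 on chromosome 20. That scaling also turned the DRB folds of the islands at 33962201 and 26187001 to 0.969 and 0.884. It turned the untreated folds at 46385601, 46398401, 350401, 30903601, 34276201 and 52709401 to 0.945, 0.960, 0.996, 0.940, 0.977 and 0.998. When islands with input 5 or more times as dense as the median were left out, the binomial test called 0 DRB members. The DRB fold of chromosome 16 was then 1.25. The conditional test called 3 pairs, 3 of the 5 named pairs that were left to test. By the median over islands, the folds were 1.40 with DRB and 1.05 untreated on chromosome 16 and 1.34 and 1.03 on chromosome 20. By summed reads, input density over that of other chromosomes was 1.17 on chromosome 16 and 1.04 on chromosome 20 with DRB, against medians of 1.08 and 1.13. In 2 Mb bins the highest DRB fold was 1.34 on chromosome 16 and 1.41 on chromosome 20, against 1.15 and 1.25 in 1 Mb bins of at least 2000 DRB input reads, and the highest untreated fold of chromosome 20 was 1.1 against 1.14. Added after the data were seen, leaving out islands within 1 Mb of the gaps gave a DRB fold of 1.24 on chromosome 16 and 5 called pairs. It left 1 DRB and 130 untreated members above input. That DRB member is the strong island at 33962201 to 33965400, more than 1 Mb from the gap that begins at 35250600. This limit therefore did not leave it out, and its pair is among the 5. With any overlap, 8 islands were lower and 1 higher with DRB, of which 5 are among the 8 pairs named, and the other 3 named pairs lost the call. These calls were 0.271% of the 3319 islands tested here, where 0.558% of the 23638 over the whole genome were called. Apart from these and the adjusted p of 0.0001, the counts in this paragraph are given without a share over the whole genome.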
